A study of Mus musculus with 20 samples.

Results

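Levels of 9 epithelial genes were followed across mouse pancreatic ductal adenocarcinomas of 3 genotypes. The genes were given by name for their roles in epithelial transcription, splicing and junctions, and their symbols were matched to the Ensembl identifiers of the expression table. All 9 were found among its 20636 genes and all 9 passed the minimum level for testing. They are the transcription factors Elf3 and Grhl2, the splicing regulators Esrp1 and Esrp2, the adhesion molecule Epcam, the claudins Cldn3, Cldn4 and Cldn7, and the occludin gene Ocln.

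Every mouse carried Ptf1aCreER, a tamoxifen-dependent Cre recombinase driven from an acinar cell gene, with the Cre-activated oncogenic allele KrasLSL-G12D and a Cre-activated tdTomato reporter at Rosa26. KPT mice also carried Trp53fl/fl, KAT mice Arf-fl/fl (the floxed Cdkn2A-Arf locus) and KPAT mice both. Tamoxifen, 5 mg by gavage on 3 days, was given at 8 to 10 weeks of age, and mice were aged until morbidity. RNA was taken from whole tumours, 5 per genotype. The KT samples, with neither suppressor floxed, are not analysed here. The labels number the tumours without saying that each came from its own mouse, so p-values measure the spread between these tumours only. The library names also carry numbers, and their ranges do not overlap between the genotypes. What those numbers stand for is not given. In every comparison genotype therefore cannot be told apart from any order that they follow.

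Polarised epithelial cells are sealed to each other by tight junctions, belts of claudins and occludin that span the membrane and are tied to the cytoskeleton by scaffold proteins. GRHL2 and ELF3 are transcription factors that maintain epithelial gene programmes, and ESRP1 and ESRP2 direct the epithelial pattern of alternative splicing. ZEB and SNAI proteins repress many of these genes through short promoter sequences called E-boxes when cells move towards a mesenchymal state. In the pancreas such genes are expressed in duct cells and in ductal carcinomas.

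Depth ran from 14696138 to 26248484 gene-assigned reads per library. Levels are given in deposited units, which are reads divided by a factor for each library. The label of epithelial tumour was checked on Krt8, Krt18, Krt19 and Krt7, the keratins of simple epithelia: their summed level was 7473 to 13610 in KPT tumours, 4975 to 9077 in KAT tumours and 5436 to 8641 in KPAT tumours, and none was at 0 in any library. The floxed gene Trp53 averaged 24.3 ± 1.77 in the KPT tumours, 41.9 ± 9.53 in those of KPAT and 125 ± 20.03 where it was intact, in KAT (SD, n = 5 each). Its 3 groups did not overlap, and reads from cells that kept the allele count too. The other floxed locus, Cdkn2a, was not lower where Arf is floxed: it averaged 297 ± 47.1 in KPT, 425.7 ± 254.1 in KAT and 621.5 ± 289.3 in KPAT (log2 fold change 0.25, adjusted p = 0.696 in KAT and 0.93, adjusted p = 0.166 in KPAT against KPT, limma). The gene total also holds exons of the Ink4a transcript, so it does not check the Arf deletion. In whole tumours, fewer epithelial cells and less RNA of a gene per cell cannot be told apart. The summed level of 10 fibroblast markers was 1003 to 4202 in KPT tumours, 6786 to 9832 in KAT tumours and 5335 to 14190 in KPAT tumours, with every KPT tumour below every KAT and KPAT tumour and none of the 10 at 0 in any library, and the part of fibroblasts in the results was not tested.

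The promoters of the members are shown because 5 of the 6 members with a RefSeq promoter hold the E-box CAGGTG, read on either strand. RefSeq (GRCm38.p6) gave 8 windows of 250 bases upstream of a start for Elf3, Cldn3, Cldn4, Cldn7, Epcam and Ocln, and 5 of the 8 windows held this E-box. Of all 32851 RefSeq windows of this length, 17.2% held it. The printed stretches run 5′ to 3′ on the strand of the gene, stop where an exon of the gene begins, and show E-boxes in capitals (CACCTG is CAGGTG on the other strand).
Elf3, chr1:135258569-135258722, minus strand: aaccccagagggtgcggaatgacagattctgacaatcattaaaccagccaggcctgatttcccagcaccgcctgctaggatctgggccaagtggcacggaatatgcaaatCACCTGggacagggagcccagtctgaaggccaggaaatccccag
Cldn4, chr5:134946935-134947184, minus strand: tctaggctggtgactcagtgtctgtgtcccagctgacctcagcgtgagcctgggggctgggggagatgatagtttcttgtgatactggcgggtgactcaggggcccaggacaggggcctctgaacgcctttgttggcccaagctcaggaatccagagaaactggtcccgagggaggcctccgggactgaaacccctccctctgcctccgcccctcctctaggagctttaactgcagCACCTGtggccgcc
Epcam, chr17:87635729-87635978, plus strand: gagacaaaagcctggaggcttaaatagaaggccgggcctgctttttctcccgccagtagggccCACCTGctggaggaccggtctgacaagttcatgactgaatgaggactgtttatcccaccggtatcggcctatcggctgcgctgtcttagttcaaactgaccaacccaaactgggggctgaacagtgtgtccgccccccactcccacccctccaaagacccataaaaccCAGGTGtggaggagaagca

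The Cldn4 E-box began 14 bases upstream of the start, that of Elf3 140 bases, and those of Epcam 19 and 187 bases. Cldn7 and Ocln each have 2 starts in RefSeq. Their E-boxes lay before the second start, in stretches that overlap the gene's own exons, so that only 30 bases around each are shown.
Cldn7, chr11:69965312-69965341, plus strand: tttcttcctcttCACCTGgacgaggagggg
Cldn7, chr11:69965352-69965381, plus strand: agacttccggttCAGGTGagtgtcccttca
Ocln, chr13:100552694-100552723, minus strand: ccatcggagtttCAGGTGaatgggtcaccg
Ocln, chr13:100552549-100552578, minus strand: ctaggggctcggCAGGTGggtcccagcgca
The window of Cldn3 and the first windows of Cldn7 and Ocln did not hold these letters. The letters CCGGTT, part of the GRHL site AACCGGTT, were in the windows of Elf3, Cldn7 and Ocln that held an E-box. The same letters were in 5.62% of all windows. No window of the members held the whole site AACCGGTT, which 0.116% of all windows held. The further E-box CAGGTA, found in 10% of all windows, was also absent from the windows of the members. Sites of ETS and KLF factors were searched as well. The ETS site CCGGAAGT was in the Cldn7 window with E-boxes, on the other strand, and in 2.88% of all windows. The KLF site GGGTGTG was in the first window of Ocln, on the other strand, and in 6.93% of all windows. A match is a description of letters and no evidence of binding.

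Between KPAT and KPT, which differ by the floxed Arf allele on a Trp53-floxed background, 4 of the 9 members were lower in KPAT and none was higher (limma, adjusted p under 0.05). Elf3, Cldn7, Epcam and Ocln passed, and Cldn3, Cldn4, Esrp1, Esrp2 and Grhl2 did not. Over all 16648 genes tested, 16.5% were called, 7.4% lower and 9.13% higher. The median log2 fold change of the 9 members was -0.59, and that of all tested genes was 0.02. No member was called without KPT 1 or without KPAT 5, and 1 to 4 were called with any other library of these groups left out. Leaving out KPT 1 and KAT 1 together left Cldn7 as the 1 member called. KPT 3, KAT 2 and KPAT 5 had the largest shares of mitochondrial ribosomal RNA (mt-Rnr1 and mt-Rnr2), 0.102% to 0.298% of reads against 0.0263% to 0.0684% in the other 12 libraries. Without these 3 tumours Elf3 was the 1 member called.

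Between KAT and KPT, which exchange a floxed Arf allele for floxed Trp53, 4 of 9 members were lower in KAT and none was higher. These were Elf3, Cldn7, Ocln and Esrp2. Here 28.9% of all genes were called, 13.3% lower and 15.6% higher. The median log2 fold change of the members was -0.42 against 0.03 for all genes. The 2 comparisons share the KPT tumours, so the calls on Elf3, Cldn7 and Ocln in both are not independent. With a KPT or KAT library left out in turn, 2 to 4 members were called. The count was 2 without KPT 3, KAT 2 or KAT 3. KAT 4 and KAT 5 were the most alike pair of tumours within a genotype. With KAT 4 or KAT 5 left out, Elf3, Ocln and Esrp2 were called.

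Between KPAT and KAT, which differ by floxed Trp53 where Arf is floxed in both, no member was called by limma, and none had an unadjusted p under 0.05. Of all genes 0.0481% were called and 10.8% had an unadjusted p under 0.05. EdgeR and DESeq2 on the recovered reads also called no member. No member separated these groups without overlap, against 1.3% of all genes lower and 1.42% higher in every KPAT tumour.

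**Figure D1:**
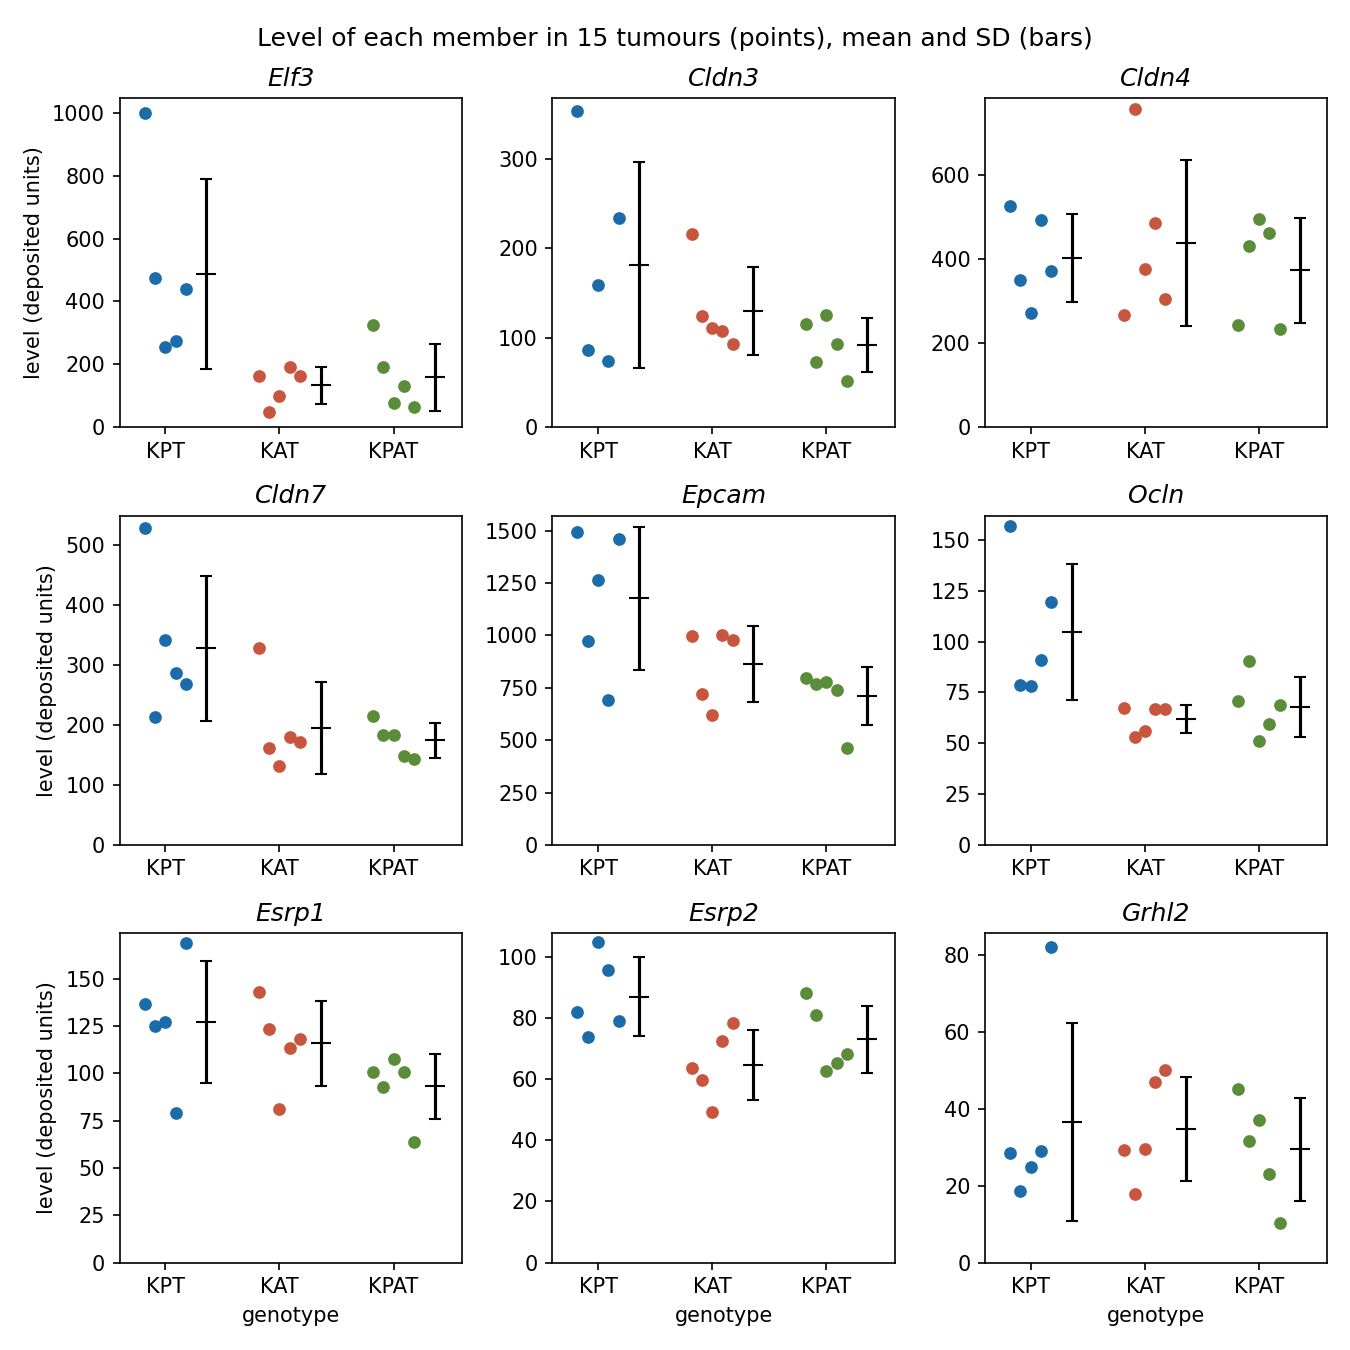
Level of each of the 9 genes in deposited units (vertical axis, from 0) in each tumour (points, ordered by tumour number within a genotype), with the mean and SD of 5 tumours beside them. Elf3 and Ocln were lower in every KAT tumour than in any KPT tumour, while the points of Cldn4 and Grhl2 overlap across the 3 genotypes.

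Elf3 encodes an ETS-family transcription factor of epithelial cells (ENSMUSG00000003051, chromosome 1, 135253575 to 135258568, minus strand, GRCm38). In KPT tumours 1 to 5 it was at 1000, 473, 255, 273 and 441. In KAT tumours it was at 162.5, 49.4, 98.1, 191 and 164, and in KPAT tumours at 324, 191, 78.1, 132 and 65.2. All 5 KAT tumours lay below the lowest KPT tumour, as did 4 of 5 KPAT tumours; KPAT 1 lay between KPT tumours. Elf3 had the largest difference of the 9 members in both comparisons with KPT. The means were 488.5 ± 302 in KPT, 133 ± 57.8 in KAT and 158 ± 105 in KPAT (SD, n = 5). The log2 fold change was -1.84 in KAT (SE 0.48, 72.1% lower, adjusted p = 0.0115) and -1.69 in KPAT (SE 0.48, 69% lower, adjusted p = 0.0278, limma). KAT and KPAT did not differ beyond their spread (log2 fold change 0.15, 95% interval -0.87 to 1.18, adjusted p = 0.936). The highest tumour, KPT 1, also had the highest summed level of 7 intestine markers, 4842 against group medians of 1621 in KPT, 715 in KAT and 689 in KPAT. Of these markers Cdx1 was at 0 in 5 libraries and Cdx2 in 1, and their part in the result was not tested. With any KPT or KAT library left out the KAT difference kept its call, and its log2 fold change ran from -2.03 to -1.52. The KPAT difference missed the threshold when KPT 1, KPT 2, KPAT 3 or KPAT 5 was left out (largest adjusted p = 0.0714), and its value then lay between -1.65 and -1.38. An antisense gene, Gm26642, overlaps 162 bases of Elf3 exons. Its mean level was 2.76, and whether strand was used in counting is not given in the sources used here.

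Grhl2 encodes a grainyhead-family factor that activates junction genes (ENSMUSG00000022286, chromosome 15, 37233036 to 37363569, plus strand). KPT tumours were at 28.4, 18.6, 24.8, 29.0 and 82.1, KAT tumours at 29.2, 17.7, 29.5, 47.1 and 50.1, and KPAT tumours at 45.2, 31.6, 37.1, 23.0 and 10.4. The groups overlapped throughout, with KPT 5 the highest and KPAT 5 the lowest of all 15 tumours. Neither comparison with KPT passed. The 95% interval of the log2 fold change was -1.18 to 0.66 for KPAT and -0.88 to 0.96 for KAT. Of the tested genes outside the members, with predicted and sex-linked genes passed over, the epithelial transcription factor Ehf followed Grhl2 most closely. Pearson's r of log2 levels over 15 tumours was 0.90, and Ehf was picked for this high value. After removing group means r was 0.905. Both are descriptions over tumours that share 1 library scaling.

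The splicing regulators Esrp1 (ENSMUSG00000040728, chromosome 4, 11331933 to 11386783, minus strand) and Esrp2 (ENSMUSG00000084128, chromosome 8, 106130319 to 106136974, minus strand) bind overlapping sets of transcripts. Esrp1 was at 136, 125, 127, 78.9 and 169 in KPT, at 143, 123, 81.2, 113.5 and 118 in KAT, and at 101, 93.0, 107.5, 101 and 63.9 in KPAT. The KPAT tumours lay in a narrow band apart from KPAT 5, and 4 of 5 KPT tumours were above all of them. Its log2 fold change in KPAT against KPT was -0.43 (95% interval -0.86 to -0.0044, adjusted p = 0.152), which did not pass except without KPT 4, the lowest KPT tumour (-0.59, adjusted p = 0.0348). In KAT it was -0.12 (interval -0.54 to 0.31).

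Esrp2 was at 81.8, 73.9, 105, 95.6 and 78.8 in KPT, at 63.5, 59.7, 49.1, 72.4 and 78.3 in KAT, and at 88.1, 80.8, 62.6, 65.2 and 68.1 in KPAT. Only KAT 5 of the KAT tumours reached the KPT range. Esrp2 was 26% lower in KAT (log2 fold change -0.43, SE 0.14, adjusted p = 0.0353, limma). The call was lost without KPT 3, KPT 4, KAT 1, KAT 2 or KAT 3 (-0.43 to -0.34, largest adjusted p = 0.0914) and with edgeR (adjusted p = 0.0503). Its log2 fold change of -0.25 in KPAT did not pass (95% interval -0.56 to 0.05, adjusted p = 0.24). Its exons share 219 bases with Nfatc3 on the other strand, whose mean level was 75.8, and without strand in the counting their reads cannot be told apart. Among KPT tumours the log2 ratio of Esrp1 to Esrp2 was 0.52 ± 0.53, among KAT tumours 0.84 ± 0.26 and among KPAT tumours 0.34 ± 0.35 (SD, n = 5). The largest of its 3 differences, -0.49 between KPAT and KAT, had p = 0.0635 by an exact two-sided permutation test and 0.357 after adjustment over 9 ratio tests; the smallest p this design allows is 0.00794.

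Epcam encodes a surface adhesion molecule of epithelia that stabilises claudin-7 (ENSMUSG00000045394, chromosome 17, 87635979 to 87651129, plus strand). It was at 1495, 973, 1263, 689.8 and 1462 in KPT, at 996, 719, 619.5, 1004 and 976 in KAT, and at 799, 770.1, 779, 739.8 and 463 in KPAT. In 4 of 5 KPT tumours it was above every KPAT tumour, and KPT 4 fell among them. The means were 1177 ± 342 in KPT, 863 ± 181 in KAT and 710.2 ± 139.9 in KPAT (SD, n = 5). Against KPT, Epcam was 38.4% lower in KPAT tumours (-0.70 on the log2 scale, SE 0.23, adjusted p = 0.0474, limma), close to the threshold. The call was lost without KPT 1, KPT 2, KPT 3, KPT 5 or any KPAT tumour (-0.75 to -0.55, adjusted p up to 0.113), and in 18 of 26 alternative analyses in all. In KAT its log2 fold change of -0.42 did not pass (95% interval -0.90 to 0.07, adjusted p = 0.178), except without KPT 4 (-0.60, adjusted p = 0.0448).

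Cldn7 encodes the claudin that binds EPCAM (ENSMUSG00000018569, chromosome 11, 69964779 to 69967885, plus strand). It lies 372.9 kb from Trp53 on the same chromosome. It was at 528, 213, 342, 286 and 268 in KPT, at 328, 161, 132, 179.7 and 171 in KAT, and at 214, 183, 183, 149 and 142 in KPAT. In each of KAT and KPAT, 4 of 5 tumours lay below the lowest KPT tumour, and in each group tumour 1 was the exception. Tumour 1 also had the highest summed level of 7 intestine markers in each genotype (4842 in KPT, 2327 in KAT and 1330 in KPAT). The part of these markers in the exceptions was not tested. Cldn7 was 44.7% lower in KPAT (log2 fold change -0.85, SE 0.25, adjusted p = 0.0299) and 40.8% lower in KAT (-0.76, SE 0.25, adjusted p = 0.0336, limma). With a library left out, the KPAT value ran from -0.99 to -0.66, and leaving out KPT 1, KPT 3, KPAT 2, KPAT 4 or KPAT 5 ended the call (largest adjusted p = 0.0708). The KAT call was lost without KPT 1, KPT 3, KAT 2, KAT 3, KAT 4 or KAT 5 (-0.75 to -0.57, adjusted p up to 0.0846).

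The other 2 claudins sit 39.3 kb apart on chromosome 5, Cldn3 at 134986214 to 134987472 on the plus strand (ENSMUSG00000070473) and Cldn4 at 134945119 to 134946934 on the minus strand (ENSMUSG00000047501). Cldn3 was at 353, 86.1, 159, 74.0 and 233 in KPT, at 216, 124, 111, 108 and 92.4 in KAT, and at 116, 72.5, 125, 92.4 and 51.8 in KPAT. The KPT tumours spanned 4.77-fold and covered most of the range of the other groups. Its log2 fold change was -0.81 in KPAT (95% interval -1.64 to 0.02, adjusted p = 0.164) and -0.30 in KAT (interval -1.13 to 0.53), and neither passed with limma, although DESeq2 called the KPAT difference (adjusted p = 0.0473).

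Cldn4 was at 528, 351, 273, 495 and 373 in KPT, at 267, 758, 377, 487 and 305 in KAT, and at 244, 431, 497, 462 and 234 in KPAT. High and low tumours occurred in every group, and the highest was KAT 2. Its log2 fold change was -0.14 in KPAT (95% interval -0.77 to 0.49) and 0.06 in KAT (interval -0.57 to 0.69), and neither passed. The lower bound in KPAT lies beyond the value of Epcam, -0.70, so a change of that size lies within the interval. The log2 ratio of Cldn7 to Cldn4 was -0.33 ± 0.48 in KPT, -1.15 ± 0.95 in KAT and -1.04 ± 0.59 in KPAT (SD, n = 5), and its differences from KPT had p = 0.127 in KAT and 0.0794 in KPAT by exact two-sided permutation tests (adjusted p = 0.381 and 0.357). The ratio of Cldn4 to Cldn3 passed in no comparison either (adjusted p = 0.536, 0.634 and 0.634, exact permutation tests).

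Ocln encodes occludin, a tight junction membrane protein unrelated in sequence to claudins (ENSMUSG00000021638, chromosome 13, 100496507 to 100552718, minus strand). It was at 157, 78.8, 78.0, 91.0 and 119 in KPT, at 67.2, 53.3, 55.8, 66.9 and 66.7 in KAT, and at 71.0, 90.3, 51.0, 59.2 and 68.9 in KPAT. The KAT tumours lay close together and all below the lowest KPT tumour, and KPAT 2 was the only KPAT tumour in the KPT range. Ocln was 38.9% lower in KAT (log2 fold change -0.71, SE 0.19, adjusted p = 0.0137) and 33.8% lower in KPAT (-0.59, SE 0.19, adjusted p = 0.0463, limma). Leaving out any 1 KPT or KAT library kept the KAT call, while leaving out KPT 1, KPT 4 or KPT 5, or any KPAT tumour but KPAT 2, ended the KPAT call (-0.63 to -0.44, largest adjusted p = 0.11).

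Ocln and Elf3 were the 2 of 9 members whose KAT tumours all lay below all KPT tumours, a pattern seen in 8.38% of all genes (9.24% lay above). No member did so in KPAT, against 4.93% of genes below and 5.03% above. The keratins Krt18 and Krt19 were also lower in KAT than in KPT, with log2 fold changes of -1.02 (adjusted p = 0.0102) and -0.79 (adjusted p = 0.0206, limma; -0.65 and 0.0556 without KAT 3); Krt8 was at -0.61 and did not pass (adjusted p = 0.0893). None of the 3 passed in KPAT against KPT, with log2 fold changes of -0.29 to -0.63. Krt7 passed in neither comparison (-0.42, adjusted p = 0.109 in KAT and -0.46, adjusted p = 0.107 in KPAT, limma). Each library was then scaled to equal levels of Krt8, Krt18 and Krt19. The median of all genes moved to 0.51 in KPAT against KPT and 0.83 in KAT against KPT. There 3366 of 3469 called genes were higher in KPAT and 9160 of 9284 were higher in KAT. On that scale no member was called in KPAT, and in KAT Cldn4 (0.87, adjusted p = 0.0211) and Esrp1 (0.69, adjusted p = 0.0474) were called higher, close to the median of all genes, while Elf3 stood at -1.03 (adjusted p = 0.0888) and Ocln at 0.10.

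**Figure D2:**
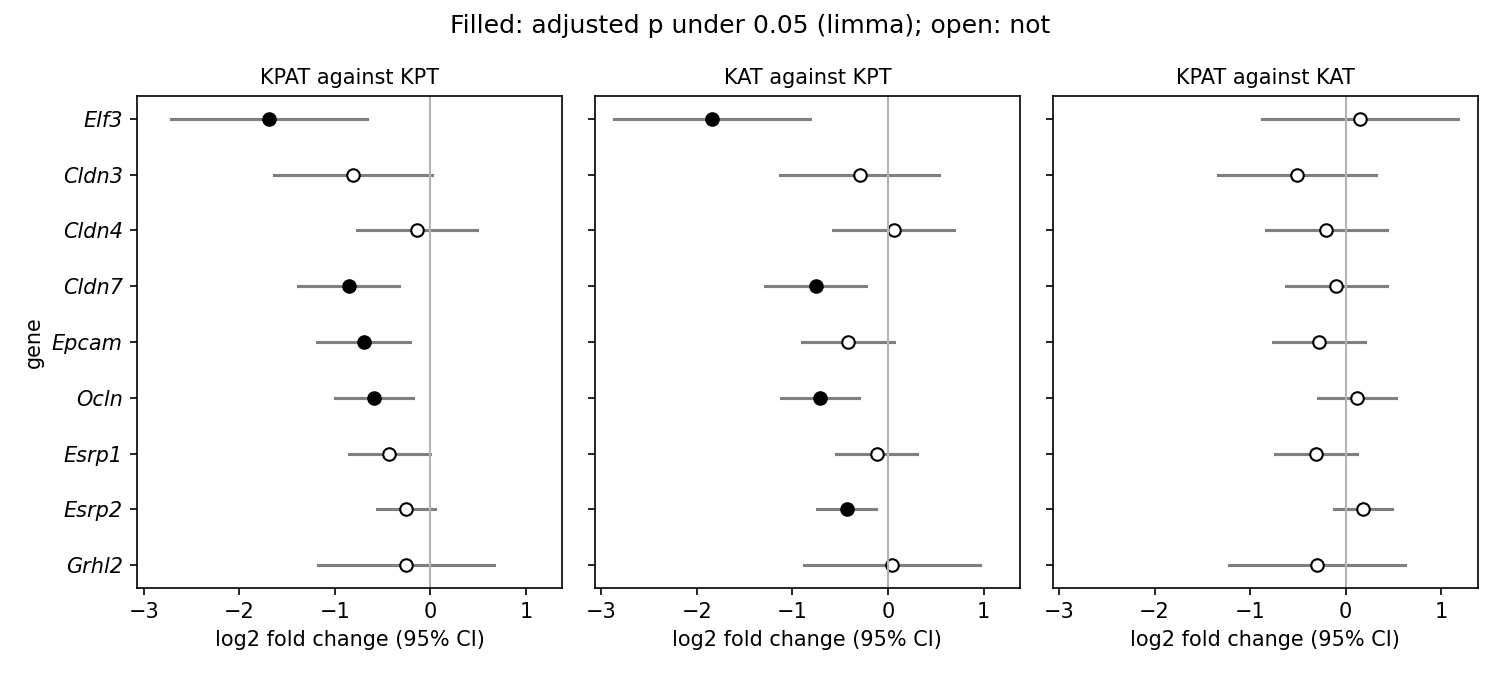
Log2 fold change (horizontal axis) with its 95% confidence interval for each of the 9 genes in the 3 comparisons, filled where the limma adjusted p is under 0.05. The 4 filled points in each comparison with KPT lie below 0, from -1.84 to -0.43, and no point is filled between KPAT and KAT.

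Per kilobase of exon, Epcam had the highest level of the 9 in every genotype: 536 ± 156 in KPT, 393 ± 82.3 in KAT and 323.5 ± 63.7 in KPAT (deposited units per kb, SD, n = 5). In KPT all 5 tumours were above the range of the next gene, Cldn4 (222 ± 58.1), while Cldn4, Elf3, Cldn7 and Cldn3 overlapped their neighbours in the order. Ocln, Esrp1 and Esrp2 formed a lower tier at 24.8 to 20.04 in KPT, and Grhl2 was lowest at 4.25 ± 2.99. Elf3 stood at rank 3 in KPT at 220.3 ± 136 and at rank 5 in KAT (59.9 ± 26.1) and KPAT (71.4 ± 47.6). In all 3 genotypes Grhl2 did not overlap the gene above it.

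Spread between tumours differed among the members. The coefficient of variation in KPT was 70.5% for Grhl2, 63.7% for Cldn3 and 61.9% for Elf3, against 14.8% for Esrp2. KPT 1 was the highest KPT tumour for 6 members and the highest of all 15 for 5 of them. KPAT 5 was the lowest KPAT tumour for 7 members and the lowest of all 15 for 5, although its keratin sum was the highest of the KPAT tumours (8641). It also had the largest share of mitochondrial ribosomal RNA of the KPAT tumours, whose part in these low values was not tested.

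Across the 15 tumours the 36 pairs of members had Pearson's r of log2 levels from -0.24 to 0.89 with a median of 0.475. After removing group means the range was -0.30 to 0.88 and the median 0.365. Epcam and Esrp1 (0.89) and Elf3 and Ocln (0.85) were the closest pairs. Cldn4 was the exception, with r from -0.24 to 0.14 to the other 8. These are descriptions over 15 tumours that share 1 library scaling.

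**Figure D3:**
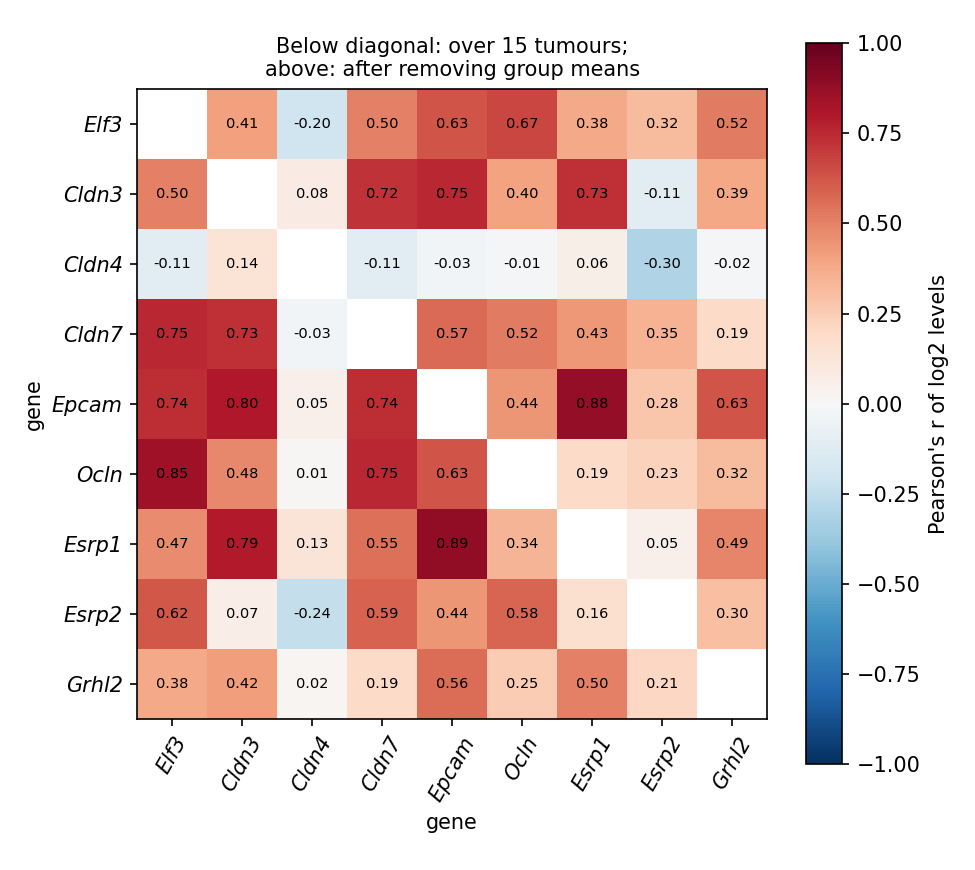
Pearson's r of log2 levels for each pair of the 9 genes, over 15 tumours below the diagonal and after removing group means above it. Cldn4 is pale against every other gene (-0.24 to 0.14 below the diagonal), and Epcam with Esrp1 is darkest (0.89).

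The genes outside the 9 with the highest median r to them were Pkp3, a desmosomal plakophilin (0.751), Rps6ka1, a ribosomal S6 kinase (0.748), the tetraspanin Cd82 (0.738), B4galnt4 (0.736), the p38 kinase Mapk13 (0.734) and Cox14 (0.73). Single members had closer partners: Dynll2 for Elf3 (0.96), Cxcl17 for Ocln (0.949), Plekhb2 for Cldn7 (0.937), Zfp511 for Esrp2 (0.922), S100a8 for Cldn3 (0.913), Bspry for Epcam (0.902), F10 for Esrp1 (0.864) and Dnajc14 for Cldn4 (0.774). All were picked for the highest r among the genes tested, with predicted and sex-linked genes passed over. High values are therefore built into the choice, and no test was made on them.

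Of 24 other tight junction genes, 4 were lower and 2 higher in KPAT against KPT with 18 not called, where 7.4% and 9.13% of all genes were. In KAT against KPT 7 were lower and 3 higher with 14 not called, where 13.3% and 15.6% of all genes were. The higher calls depended on the tool: edgeR called none higher in KAT and only Cldn2 in KPAT, while DESeq2 called 3 and 2 higher, and 10 lower in KAT. The list medians were -0.27 in KPAT and -0.35 in KAT, against 0.02 and 0.03 for all genes. Crb3, a polarity protein of the apical membrane, ranged from 61.1 to 86.9 among KPT tumours, from 38.0 to 49.3 among KAT tumours and from 42.0 to 51.4 among KPAT tumours, without overlap with KPT. Its log2 fold change was -0.73 in KAT (SE 0.11, adjusted p = 0.000666) and -0.62 in KPAT (SE 0.11, adjusted p = 0.00461, limma). Pard6b, its partner in the polarity complex, was lower by -0.61 and -0.63, and F11r, the junctional adhesion molecule JAM-A, by -0.61 and -0.39. Cldn18, a claudin of stomach epithelium, had the largest difference: it ranged from 80.9 to 1445 among KPT tumours, from 1.08 to 29.0 among KAT tumours and from 2.62 to 88.0 among KPAT tumours (log2 fold change -4.74, SE 1.04, adjusted p = 0.00429 in KAT and -4.29, SE 1.04, adjusted p = 0.0137 in KPAT). Without KPT 3, KAT 2 and KPAT 5 its KPAT difference missed the threshold (-3.77, adjusted p = 0.0545). Cldn2, which forms cation pores, and the scaffold gene Cgnl1 were the 2 called higher in KPAT (0.69 and 0.91, chosen for naming after their values were seen).

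Of 16 adherens junction and desmosome genes, 2 were lower and 1 higher in KPAT, and 5 lower and 1 higher in KAT. The 3 of 16 called in KPAT and 6 of 16 in KAT stand against 16.5% and 28.9% of all genes, and the medians were -0.25 and -0.35. These calls are from limma, and the number lower depended on the tool. EdgeR called 3 lower in KPAT and 6 in KAT, and DESeq2 called 5 and 9, each with 1 higher. The plakophilin gene Pkp2 was lower in both (-0.76, adjusted p = 0.00436 and -0.86, adjusted p = 0.000797, limma) without overlap with KPT. Pkp3 was lower in KPAT (-0.59, adjusted p = 0.0166; -0.53 and 0.0625 without KPT 3, KAT 2 and KPAT 5), and Nectin2 in KAT (-0.73, adjusted p = 0.00977). Ctnnb1, which encodes the adhesion and Wnt pathway protein beta-catenin, was the 1 called higher (0.60 in KPAT, adjusted p = 0.0123, or 0.54 and 0.0535 without those 3 tumours, and 0.56 in KAT, adjusted p = 0.00959).

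Among 14 other epithelial transcription factors tested, 2 were lower in KPAT, 4 in KAT and none higher. Of all genes 16.5% and 28.9% were called in either direction, near the shares of this list. Of all genes 7.4% and 13.3% were called lower, smaller shares than in this list, which rest on 2 and 4 genes. The medians were -0.24 and -0.29. Foxa1, a pioneer factor of endodermal epithelia, was at 103, 33.2, 55.5, 25.4 and 187 in KPT, at most 22.6 in KAT and at most 19.7 in KPAT. Its log2 fold change was -3.89 (SE 0.71, adjusted p = 0.00157) in KAT and -3.39 (SE 0.71, adjusted p = 0.00801) in KPAT. Grhl3, a paralog of Grhl2, had log2 fold changes of -2.66 in KAT and -2.59 in KPAT from a KPT mean of 3.56 ± 2.57. The Grhl3 call held in KPAT only with KPT 2, KPT 5 or KPAT 1 as the library left out (with any other, -2.63 to -2.05 and an adjusted p up to 0.088), and in KAT it was lost without KPT 1 (-2.31, adjusted p = 0.0521).

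None of 10 genes for EPCAM partners and membrane proteases was called in KPAT by limma (4 had an unadjusted p under 0.05; edgeR called none and DESeq2 called Tspan8, Spint1 and Spint2 lower), and 2 were lower in KAT: the tetraspanin gene Tspan8 (-1.04, adjusted p = 0.00192) and Spint2, which encodes an inhibitor of membrane serine proteases (-0.63, adjusted p = 0.0242). Of 14 splicing regulators and transcripts spliced by ESRP proteins, Exoc7 was lower (-0.42 and -0.49 in KPAT and KAT) and Fgfr2 higher (1.31 and 1.10), and Rbm47 was lower in KAT (-0.55). These are gene totals and do not show which exons were used. Over all genes, 7.4% were called lower and 9.13% higher in KPAT, and 13.3% and 15.6% in KAT. The Fgfr2 call was lost without KPT 2, KPT 3, KPAT 4 or KPAT 5 in KPAT (1.11 to 1.20) and without KPT 2, KPT 3, KAT 3, KAT 4 or KAT 5 in KAT (0.90 to 1.05). Those on Exoc7 (KPAT), Spint2 and Rbm47 were lost too with some library left out: KPT 1 or KPAT 3 for Exoc7 (adjusted p up to 0.0512), KAT 2 or KAT 3 for Spint2 (0.0572), and KPT 1, KPT 4, KPT 5, KAT 2, KAT 3 or KAT 5 for Rbm47 (0.0674).

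The repressors of epithelial genes were called in the other direction. Of 8 tested, 4 were higher in KPAT and 5 in KAT, and none was lower. Of all genes 9.13% were called higher in KPAT and 15.6% in KAT, against KPT. Snai1 was at 7.88, 7.80, 2.70, 9.69 and 8.51 in KPT, at 15.6, 30.5, 19.2, 22.2 and 18.7 in KAT, and at 29.4, 54.0, 17.1, 26.6 and 40.1 in KPAT. Every KAT and KPAT tumour was above every KPT tumour (log2 fold change 1.61, SE 0.35, adjusted p = 0.00401 and 2.20, SE 0.35, adjusted p = 0.00248, limma). Zeb1 averaged 19.04 ± 4.35 over KPT tumours, 29.6 ± 4.52 over KAT tumours and 33.6 ± 3.21 over KPAT tumours (SD, n = 5), again without overlap with KPT (0.66, adjusted p = 0.00846 and 0.84, adjusted p = 0.00523). Zeb2 was higher by 1.34 and 0.91, and Prrx1 by 1.06 and 1.36. The calls on Snai1 and Zeb1 held in all 26 alternative analyses of each comparison. Fibroblasts also express these genes, and 10 of 10 fibroblast markers were higher in KAT and 7 of 10 in KPAT. The part of fibroblasts in these values was not tested. No gene of the 6 lists was called between KPAT and KAT by limma (6 had an unadjusted p under 0.05; edgeR and DESeq2 also called none), against 0.0481% of all genes.

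On the keratin scale, where the median of all genes was 0.83 in KAT against KPT, the values of Crb3, F11r, Nectin2, Spint2, Exoc7 and Rbm47 lay between 0.08 and 0.32, above 0 and below that median. Pkp2 (-0.055) and Tspan8 (-0.23) stayed below 0, and neither was called. In KPAT against KPT, where that median was 0.51, Crb3 (-0.12), Pard6b (-0.14), Pkp2 (-0.27) and Pkp3 (-0.096) stayed below 0 and lost their calls, and Exoc7 was at 0.0815.

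**Figure D4:**
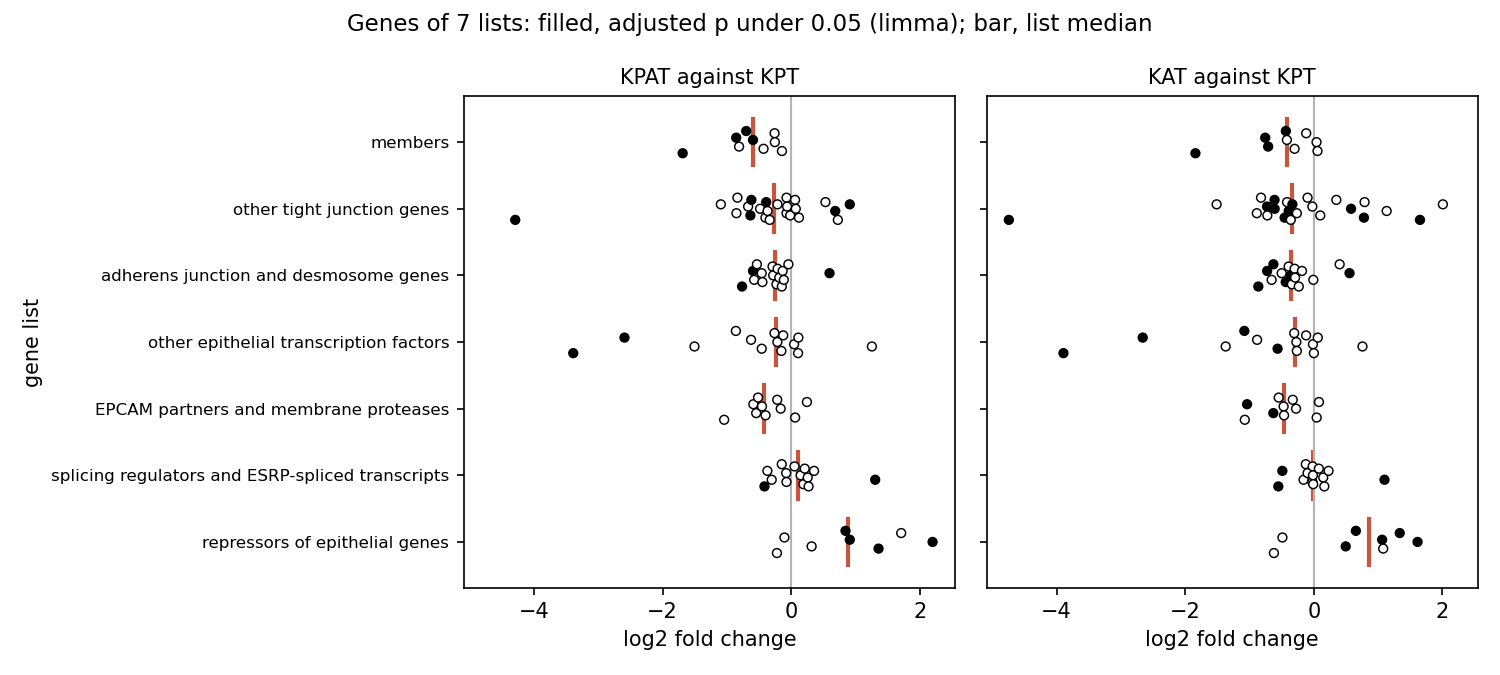
Log2 fold change (horizontal axis) of each tested gene of the 9 members and 6 further lists in KPAT and KAT against KPT, filled where the limma adjusted p is under 0.05, with the list median as a bar. The medians of the members are -0.59 and -0.42, those of the repressors 0.88 and 0.86.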

How the data were processed

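Tumour RNA (RNeasy midi, TruSeq RNA libraries, HiSeq4000, per the labels' protocols) was sequenced. The submitters' processing notes name HISAT2 2.0.4 and the build mm10 (GRCm38). How reads were counted, with which annotation and strand setting, and how libraries were scaled is not given in the sources used here. As for units, the authors' deposited table holds signal values that are whole reads divided by a library factor, judged from the values: 100% came within 0.01 of a whole number when multiplied back.

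Values were multiplied by 19.478, which is what 1 deposited unit is worth in reads (geometric mean over libraries), so that the pseudocount of 1 and the minimum mean of 10 are near single reads. The log2(value + 1) levels of all 15 libraries were fitted for 16648 genes in R 4.3.3 by limma 3.58.1, with 1 mean per genotype and trended eBayes. Tests were two-sided, and p-values were Benjamini-Hochberg adjusted across the whole table, with calls at 0.05. Fold changes on this scale understate the change of low genes. In simulated counts for KPAT against KPT, 40% of genes changed 2-fold and 76.3% of those changed 4-fold were recovered (300 each over 3 runs, 16648 genes). Far fewer genes were changed in each run than the 2752 called in the data. The adjusted threshold depends on that number, so recovery in the data can differ. Log2 ratios of paralogs were compared by exact permutation over 252 assignments of 5 against 5 tumours. Depths are in the report, and counting error weighs most on low genes.

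The members, lists, naming rule and alternatives were chosen with earlier results of these data known. The rule named all members, up to 3 called genes with the smallest p per list and comparison, and the genes most correlated with the members; 1 gene it named is included in the counts but not reported here by name. The lists of lymphocyte, acinar, islet, endothelial, mesothelial and macrophage markers were counted as well (6, 7, 6, 7, 4 and 8 genes tested): none, none, none, 2, none and 3 were higher in KPAT against KPT, 1, none, none, 2, 1 and 5 in KAT against KPT, and none was lower. Of 7 intestine markers 3 were lower in each. Over all genes, 9.13% were called higher and 7.4% lower in KPAT, and 15.6% and 13.3% in KAT. Coordinates and exon lengths came from GENCODE vM21 (20574 of 20636 IDs matched a symbol) and promoters from RefSeq (GRCm38.p6). edgeR 4.0.16 and DESeq2 1.42.0 on recovered reads, other scalings, filters and pseudocounts, a replicate block and left-out libraries were alternatives. The labels state no pairing by number, and same-numbered tumours deviated together little (r from -0.21 to 0.25), so no pairing was used. No 2 replicates were copies of 1 library: the most alike pair, KAT 4 and KAT 5, differed far beyond counting noise (chi-square 18.1 per gene). That pair was still far closer than any other. The next chi-square was 53.8, for KPAT 3 and KPAT 4. Spearman's r was 0.989 for KAT 4 and KAT 5, and at most 0.9725 for other pairs. Whether KAT 4 and KAT 5 came from the same mouse is not given, so KAT may hold fewer than 5 independent tumours. Python 3.11.15, numpy 2.4.6, pandas 2.3.3 and matplotlib 3.10.9 served for tables and plots.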

Additional observations from a re-analysis of the deposited data

Results flagged for a closer look

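In 4 of 36 groups of values (levels of the 9 members and their 3 paralog ratios in each genotype), 1 tumour stood apart from the other 4. Its gap to the nearest tumour exceeded 0.71 of the group's whole range, a share that normally distributed values exceed in about 1 group in 20. Levels were compared in deposited units and not as logs. Their distribution was not tested, so that rate may not hold here. For Cldn3 in KAT the share was 0.742, with KAT 1 high at 216 against 92.4 to 124. For Cldn7 in KAT it was 0.757, also with KAT 1 high, at 328 against 132 to 179.7. For Epcam in KPAT it was 0.824, with KPAT 5 low at 463 against 739.8 to 799. For Grhl2 in KPT it was 0.835, with KPT 5 high at 82.1 against 18.6 to 29.0. Among KAT tumours, KAT 1 also had the highest summed levels of intestine (2327), acinar (997.9) and lymphocyte (74.2) markers. Its sums of fibroblast (6786) and macrophage (861) markers were the lowest. The part of these cell types in its high values was not tested.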

How the results depend on the processing

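Of 1631 checks on single genes' values, 1452 kept direction and side of the threshold, 129 lost a call, 6 gained one and 44 changed sign. The 11 sign changes of called values all came from scaling to Krt8, Krt18 and Krt19, which moved the median of all genes to 0.51 (KPAT against KPT), 0.83 (KAT against KPT) and -0.31 (KPAT against KAT); the cause of the other changes was not tested. Members called in KPAT against KPT numbered 2 with no minimum, quantile scaling, a fit of only the 2 groups or array weights, 0 on the keratin scale, 1 without KPT 1 and KAT 1, 1 without KPT 3, KAT 2 and KPAT 5 (the tumours with most mitochondrial ribosomal RNA), and 0 to 4 with 1 library left out. In KAT against KPT they numbered 2 (Elf3 and Ocln) with quantile scaling, only the 2 groups or without KPT 3, KAT 2 and KPAT 5. With 1 library left out they numbered 2 to 4. On the keratin scale 2 other members, Cldn4 and Esrp1, were called higher, and no member was called lower. A replicate block in limma gave 3 members in each comparison with KPT (Epcam, adjusted p = 0.0785, and Esrp2, adjusted p = 0.0676, were not called). Correlations of same-numbered tumours ran from -0.21 to 0.25. Such values show little likeness by number but cannot exclude a pairing, which the labels do not state. Over all genes the block moved the calls from 2752 to 2248 and from 4805 to 4313. Over all genes, calls in KPAT against KPT ran from 1687 (without KPAT 2) to 3861 (DESeq2), in KAT against KPT from 3539 (without KAT 4) to 9284 (keratin scale), and in KPAT against KAT from 6 (minimum mean of 50) to 515 (array weights; 284 with DESeq2, 45 without KAT 2).

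On the keratin scale, values above 0 replaced values below it in KPAT against KPT for Cldn4 (0.35), Esrp1 (0.067), Esrp2 (0.24), Grhl2 (0.24) and Exoc7 (0.0815), and in KAT against KPT for Cldn3 (0.51), Cldn7 (0.052), Epcam (0.39), Ocln (0.098), Esrp1 (0.69), Esrp2 (0.37), Crb3 (0.081), F11r (0.20), Nectin2 (0.082), Spint2 (0.18), Exoc7 (0.32) and Rbm47 (0.26). In KPAT against KAT, Elf3 (-0.16), Ocln (-0.19) and Esrp2 (-0.13) fell below 0 on it, and Elf3 also with array weights (-0.11). Grhl2 in KAT against KPT was -0.049 with edgeR and -0.076 with DESeq2. Without KPT 3, KAT 2 and KPAT 5, Cldn4 was -0.30 in KAT against KPT and 0.17 in KPAT against KAT; without KPT 1 and KAT 1, Cldn7 was 0.11 in KPAT against KAT.

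With 1 library left out, members that were not called spanned 0: Cldn4 from -0.27 to 0.0069 and Grhl2 from -0.45 to 0.087 in KPAT against KPT; Cldn3 from -0.56 to 0.0033, Cldn4 from -0.17 to 0.21, Esrp1 from -0.28 to 0.0038 and Grhl2 from -0.15 to 0.39 in KAT against KPT; Elf3 from -0.17 to 0.41, Cldn4 from -0.35 to 0.022, Cldn7 from -0.22 to 0.11 and Grhl2 from -0.52 to 0.034 in KPAT against KAT. The log2 ratios of Cldn4 to Cldn3 (-0.0425 to 0.55) and Cldn7 to Cldn4 (-0.17 to 0.46) did so in KPAT against KAT.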
